A study of Mus musculus with 2 samples.

Results

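Cellular iron handling was followed through 10 genes in mouse mammary basal cells cultured with or without tumor necrosis factor α (TNF-α): Trf, Tfrc, Steap4, Slc11a2, Slc39a14, Fth1, Ftl1, Slc40a1, Hmox1 and Ireb2. They were chosen by name for their roles in iron uptake, storage, export and sensing, with earlier results of these data known. All 10 were found among the 49492 genes of the deposited count table. Basal cells (CD24+CD29hi, negative for lineage markers of blood and endothelium) were sorted from the mammary glands of adult female wild-type mice and grown in a 3D gel for 10 days. The control library came from cultures with no added cytokine, labelled as treatment none, and the TNF-α library from cultures that received recombinant mouse TNF-α at 10 ng/mL. Both were grown in medium with EGF and a supplement of insulin, transferrin and selenium, so transferrin was supplied to both. How much iron it carried is not given in the sources used here. The mice of the study were 8 to 10 weeks old, and how many gave the cells of each library is not given in the sources used here. RNA sequencing gave 1 library for each condition, so no difference below has a replicate check, none was tested, and each describes a pair of libraries. Intervals are 95% intervals that cover counting error only, and because PCR copies of 1 molecule are counted separately, even that error may be understated.

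Most animal cells take up iron by binding iron-loaded transferrin at the transferrin receptor, carrying it into endosomes, reducing the iron and passing it into the cytosol. Iron that is not used at once is held inside a shell of ferritin heavy and light chains, and the only known cellular exporter of iron in mammals is ferroportin. When iron is scarce, the iron regulatory proteins bind hairpins called iron responsive elements (IREs) in mRNAs: a hairpin before the coding sequence then blocks translation, and hairpins after it protect the mRNA from decay. Inflammation is known to alter this traffic in many tissues, with storage, sequestration and reduced export of iron as its usual features, and the mammary epithelium in addition secretes iron-binding proteins into milk.

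The hairpins are shown here because the iron regulatory proteins are known to bind such elements in mRNAs of several of these genes. The search asked for a C, 5 bases, the loop CAGTGN and 5 bases able to pair with those before the loop, G with T allowed, on the sense strand of GENCODE M21 transcripts (GRCm38). Loops are in capitals, with T for U, 5′ to 3′. Such a core was held by 4 of the 10 genes, 7 cores in all.
Fth1, 5′ UTR, chr19:9982738-9982754 (+): cttcaaCAGTGCttgaa
Ftl1, 5′ UTR, chr7:45459785-45459801 (-): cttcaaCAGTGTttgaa
Slc40a1, 5′ UTR, chr1:45925471-45925487 (-): cagctaCAGTGTtagct
Tfrc, 3′ UTR, chr16:32631225-32631241 (+): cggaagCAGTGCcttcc
Tfrc, 3′ UTR, chr16:32631604-32631620 (+): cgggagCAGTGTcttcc
Tfrc, 3′ UTR, chr16:32631669-32631685 (+): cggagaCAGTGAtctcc
Tfrc, 3′ UTR, chr16:32631716-32631732 (+): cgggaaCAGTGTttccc

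The cores of Fth1 and Ftl1 shared all stem bases and lay 115 and 153 bases before the coding sequence, and that of Slc40a1 lay 207 bases before it. In Tfrc the cores lay 888, 1267, 1332 and 1379 bases after the end of the coding sequence. Cores of this kind were rare: of 21877 protein-coding genes, 31 (0.142%) held one in a 5′ UTR and 129 (0.59%) in a 3′ UTR. When 1 of the 5 pairs was allowed to fail, a setting chosen after the matches were seen, Slc11a2 held a core 37 bases into the 3′ UTR of one of its transcripts (cagagcCAGTGTgtttc, chr15:100395159-100395175, minus strand), where 872 genes (3.99%) held one. A match describes the letters only, and Trf, Steap4, Slc39a14, Hmox1 and Ireb2 held none of these cores.

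**Figure D1:**
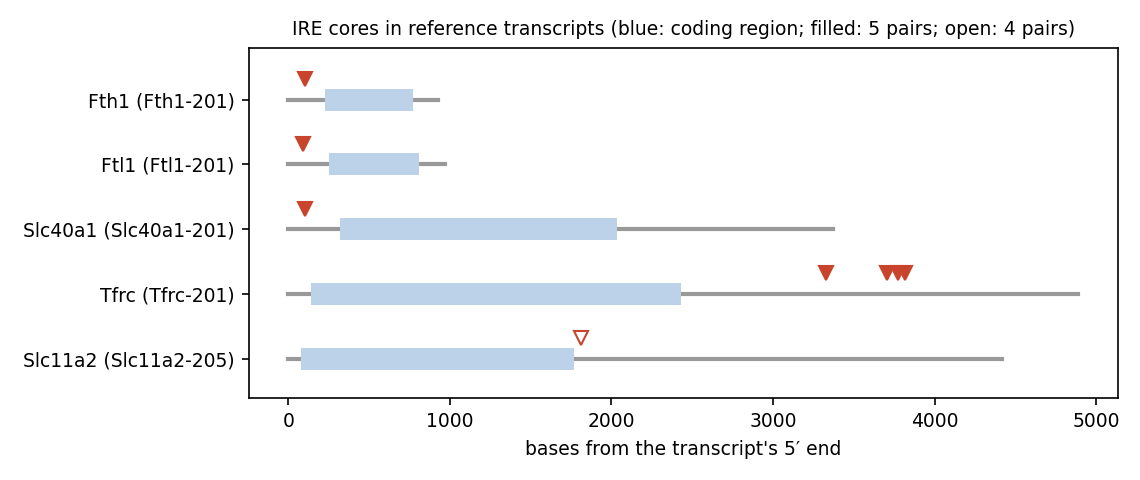
Position of the iron responsive element cores along the transcripts of the genes that held one, in bases from the 5′ end, with UTRs and coding sequence drawn to scale. Fth1, Ftl1 and Slc40a1 carry 1 core each before the coding sequence, Tfrc carries 4 after it, and Slc11a2 carries 1 that needs the looser pairing rule.

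The control library held 44462275 counts and the TNF-α library 53487087. Levels are CPM (reads of a gene relative to the size of its library) after TMM scaling, by which the library with TNF-α counted as 1.20 times the size of the control, and levels of different genes were compared as CPM per kilobase of annotated exon. The call of higher or lower was given to genes whose scaled CPM differed more than 2-fold. Of the 20771 genes with at least 10 counts over both libraries, 8.56% were called higher and 6.62% lower with TNF-α, and of the 9345 genes with at least 1000 counts, which included all 10 iron genes, 2.65% were higher and 2.02% lower. Basal cell markers were abundant in both libraries (10 genes, summed 13041.5 CPM in control and 11959.6 with TNF-α, 0 called higher and 1 called lower, Oxtr). Luminal markers summed to 3977 CPM in control and 2776 with TNF-α. All 12 had log2 ratios below 0, and Esr1, Pgr, Prlr and Areg were called lower. Leukocyte and macrophage markers summed to 9.45 and 7.31 CPM over 14 genes, with C1qc and Cd3e at 0 in both libraries, Adgre1 at 0 and 2 counts, and C1qa called lower on 8 and 3 counts. Of the other lists, erythroid markers (8 genes) summed to 23.1 and 19.4 CPM, with Klf1 called higher on only 6 and 19 counts. Fibroblast markers (6 genes) summed to 499 and 486 CPM with Dcn called higher. Endothelial markers (5 genes) summed to 7.07 and 6.75 CPM with none called. Adipocyte markers (5 genes) summed to 7.56 and 2.92 CPM with Lep called lower. By flow cytometry, the paper reports that control colonies grown from basal cells held mostly luminal cells. It also reports a larger basal share in colonies grown with TNF-α. In bulk RNA a smaller share of one cell type and less RNA per cell cannot be told apart, and the part of the luminal markers in the differences below was not tested.

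Of the 10 iron genes, Trf alone was called higher and Slc40a1 alone lower, and 8 lay within 2-fold. With 1 gene in each direction among 10, the counts are too small to be set apart from the background shares above. The median log2 ratio of the 10 was 0.16, with 7 above 0, against a median of 4.07e-05 over the genes with at least 1000 counts, whose 5th and 95th percentiles were -0.61 and 0.71. Trf and Steap4 lay above this range, and Slc40a1 and Hmox1 below it. These 4 were also the ones that differed more than 1.5-fold, with 2 higher and 2 lower, where 6.88% of the well-counted genes were higher and 5.67% lower (15.5% and 13.7% of all genes with at least 10 counts).

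**Figure D2:**
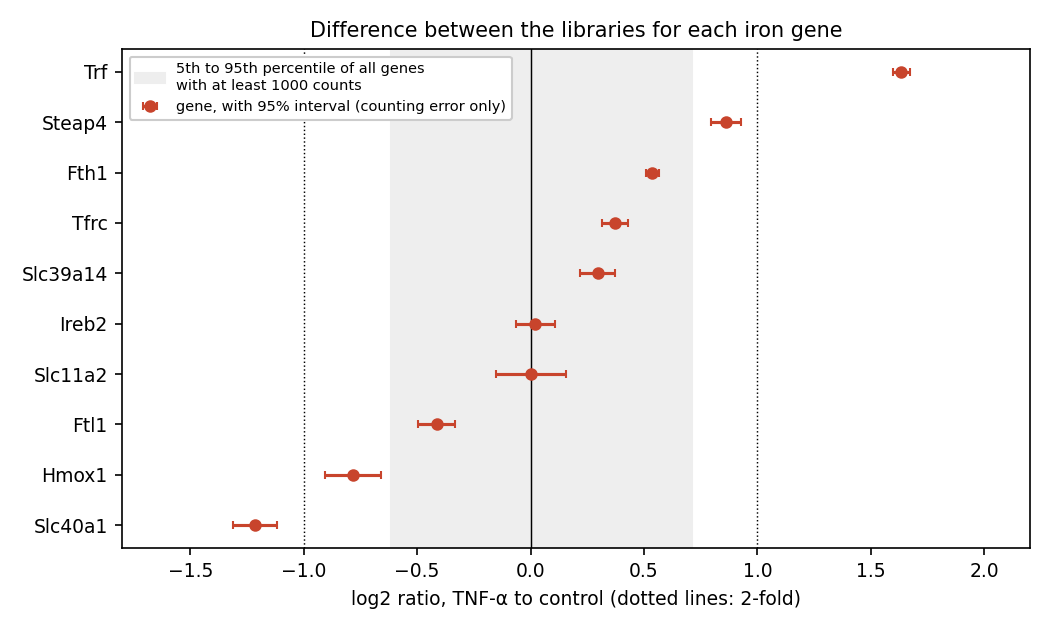
Log2 ratio of scaled CPM, TNF-α to control, for the 10 iron genes (points) with 95% intervals for counting error only; the band spans the 5th to 95th percentile of the 9345 genes with at least 1000 counts and the dotted lines mark 2-fold. Trf at 1.63 and Slc40a1 at -1.21 lie past 2-fold, and Slc11a2 and Ireb2 lie at 0.

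The genes spanned a wide range of abundance. Per kilobase of exon, Fth1 stood highest in both libraries, at 429 CPM per kilobase in control and 623 with TNF-α, and Slc11a2 lowest, at 2.25 in each. The control order from the top was Fth1, Trf, Ftl1, Steap4, Hmox1, Tfrc, Slc40a1, Slc39a14, Ireb2 and Slc11a2, where the counting intervals of Slc39a14 and Ireb2 overlapped and those of all other neighbors did not. With TNF-α the order was Fth1, Trf, Steap4, Ftl1, Tfrc, Hmox1, Slc39a14, Ireb2, Slc40a1 and Slc11a2, with no overlap between neighbors. Steap4 stood below Ftl1 in control and above it with TNF-α, as did Tfrc relative to Hmox1, and Slc40a1 stood in the seventh place in control and the ninth with TNF-α. These places rest on summed exon length, which can exceed that of the longest coding transcript (1340 against 968 bases for Ftl1, 6185 against 4890 for Tfrc). For Fth1 the summed length was the shorter, at 866 against 1494 bases, which raises its level per kilobase. Neighbors may change places with other lengths, which the counting intervals do not cover. Likewise, a ratio of 2 genes within a library depends on these lengths, and its shift between libraries does not. By the summed lengths, only 69 genes of the whole table stood above Fth1 in the TNF-α library, against 103 in control.

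**Figure D3:**
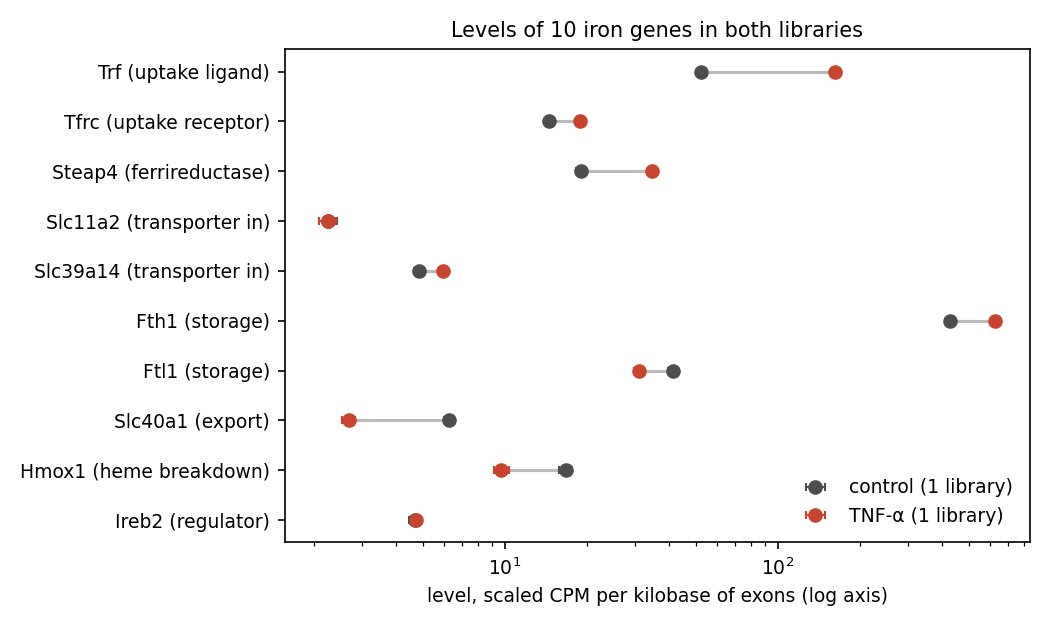
Level of each iron gene in the control and TNF-α libraries, as scaled CPM per kilobase of exon on a log axis, 1 point a library, with exact 95% Poisson intervals. Fth1 is highest and Slc11a2 lowest in both, and Trf and Slc40a1 show the widest gaps between the libraries.

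Among the uptake genes, Trf encodes transferrin, the iron carrier of plasma, which mammary epithelium also makes. It lies at chr9:103204001-103230444 on the minus strand and had 7737 counts in control and 28764 with TNF-α, or 174 and 539 CPM. The TNF-α level was 3.10-fold higher (log2 ratio 1.63, interval 1.60 to 1.67), and 98 of the 9345 well-counted genes had a larger ratio. The readthrough gene model Gm20425 shares 63.5% of the exon bases of Trf on the same strand and carried similar counts (8049 and 28891), so reads cannot be assigned to one or the other with certainty. The sum of the pair differed by a log2 ratio of 1.61 (1.58 to 1.63). Srprb, the neighboring gene that the model also runs through, had 583 and 698 counts. Trf and Srprb together had 8320 and 29462 counts, close to those of Gm20425, so the same reads may be counted for both. The sum of Trf and Gm20425 is then no independent check of Trf, and its interval may be too narrow.

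Tfrc encodes the transferrin receptor and holds the 4 hairpins shown above after its coding sequence (chr16:32608920-32632794, plus strand). Its counts were 4012 in control and 6208 with TNF-α, or 90.0 and 116 CPM, a log2 ratio of 0.37 (0.31 to 0.43) and a 1.29-fold difference that was not called. The level of transferrin per kilobase was 3.59 times that of its receptor in control and 8.63 times with TNF-α, a 2.40-fold shift in their ratio (2.29 to 2.52).

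Steap4 encodes a metalloreductase that reduces iron and copper and is known as an inflammation-responsive gene (chr5:7960457-7982213, plus strand). It had 2670 counts in control and 5810 with TNF-α, or 59.9 and 109 CPM. The log2 ratio was 0.86 (0.80 to 0.93), a 1.82-fold higher level that stayed under the 2-fold limit, and 351 well-counted genes had a larger one. The sequence before its start site was picked after its value and its matches were seen. This was the uptake gene nearest the limit on that side, and it held matches to 2 factors active in inflammation, NF-κB and C/EBP. The 250 bases before the RefSeq start site (GRCm38.p6, chr5:7960222-7960471, plus strand) read as follows, with the matches in capitals:
Steap4: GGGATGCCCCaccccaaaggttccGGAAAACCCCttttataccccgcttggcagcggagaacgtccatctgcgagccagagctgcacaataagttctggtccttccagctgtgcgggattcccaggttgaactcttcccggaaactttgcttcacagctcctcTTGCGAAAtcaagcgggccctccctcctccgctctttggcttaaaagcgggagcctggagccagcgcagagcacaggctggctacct

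On either strand, the NF-κB consensus matched at 250 and 226 bases before the start site, and the C/EBP letters TTGCNNAA matched at 87 bases. Of the 32851 RefSeq promoters, 7.25% held the NF-κB consensus and 9.56% the C/EBP letters in this window. Promoters of 5 of the 10 genes were found (Steap4, Fth1, Ftl1, Tfrc and Ireb2), and the called genes Trf and Slc40a1 were not among them. Ftl1 held the NF-κB letters once, 15 bases before the start site, Fth1 held the C/EBP letters at 129 and 58 bases in one of its windows, and neither motif was in the windows of Tfrc or Ireb2. No binding was measured in these samples.

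Slc11a2 and Slc39a14 encode membrane carriers for divalent metal ions. Slc11a2 (DMT1) moves iron out of endosomes and had the lowest level of the 10 genes (chr15:100387898-100425072, minus strand). Its counts were 638 in control and 764 with TNF-α, which is 14.3 CPM in each library, and its log2 ratio of 0.00023 had an interval of -0.15 to 0.15. Slc39a14 (ZIP14) imports iron that is not bound to transferrin (chr14:70303469-70351425, minus strand). It had 2278 and 3349 counts, or 51.1 and 62.8 CPM, with a log2 ratio of 0.30 (0.22 to 0.37), so it was higher by 1.23-fold and was not called.

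The ferritin chains differed in opposite directions between the libraries, neither past the 2-fold limit. Fth1, the heavy chain, which oxidizes iron as it enters the shell, lies at chr19:9982703-9985092 on the plus strand and had 16558 counts in control and 28768 with TNF-α, or 372 and 539 CPM. Its log2 ratio was 0.54 (0.51 to 0.56), a 1.45-fold higher level that was not called. Ftl1, the light chain, which helps form the mineral core, lies at chr7:45457944-45459884 on the minus strand and had 2469 and 2218 counts, or 55.4 and 41.6 CPM. Its log2 ratio was -0.41 (-0.50 to -0.33), 1.33-fold higher in control, also within the limit.

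The level of heavy chain per kilobase was 10.4 times that of light chain in control and 20.1 times with TNF-α, so their ratio shifted 1.93-fold (1.82 to 2.05). Both ratios used 866 bases for Fth1 and 1340 for Ftl1, against 1494 and 968 in their longest coding transcripts. With the transcript lengths both ratios would be lower, and the shift would be the same. The Ftl1 values are uncertain because 84.8% of the 75-base windows of its transcript occur in other genes of the annotation, mostly pseudogenes, against 2.32% for Fth1 and none for the 7 members other than Fth1, Ftl1 and Trf. The annotated genes Gm22133 and Gm10252 also overlap the Ftl1 exons directly, the former on the same strand with 536 and 503 counts and the latter on the opposite strand with 790 and 763. Summed with the 7 sharing genes of the table, Ftl1 had 3893 and 3608 counts and a log2 ratio of -0.37 (-0.44 to -0.30). Most of these counts were those of Ftl1 itself, and reads in overlapping exons may be counted more than once. The sum is therefore no independent check of the lower light chain value, and its interval may be too narrow.

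Slc40a1 encodes ferroportin, the iron exporter, and was the one iron gene called lower (chr1:45908068-45926523, minus strand). It had 2500 counts in control and 1290 with TNF-α, or 56.1 and 24.2 CPM. The control level was 2.32-fold higher (log2 ratio -1.21, interval -1.31 to -1.12), and 121 of the 9345 well-counted genes had a lower ratio. Ferroportin is also abundant in macrophages that recycle red cells. The leukocyte and macrophage markers together reached 9.45 CPM in control and 7.31 CPM with TNF-α, and the part of such cells in the Slc40a1 difference was not tested. The level of Tfrc per kilobase, the importer, was 2.34 times that of Slc40a1 in control and 7.003 times with TNF-α, a 3.00-fold shift (2.77 to 3.24). The 2 ratios depend on the exon lengths used, and the shift does not. Summed exons were 9000 bases for Slc40a1 and 6185 for Tfrc, against 3370 and 4890 in their longest coding transcripts. Tfrc relative to Fth1 shifted less, from 0.0339 to 0.0302, or 0.891-fold (0.852 to 0.931).

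Hmox1 encodes heme oxygenase 1, the inducible enzyme that frees iron from heme (chr8:75093621-75100589, plus strand). Its counts were 1307 in control and 909 with TNF-α, or 29.3 and 17.03 CPM. The log2 ratio was -0.78 (-0.91 to -0.66), 1.72-fold higher in control, which was not called, and 294 well-counted genes had a lower ratio. Ireb2 encodes iron regulatory protein 2, one of the proteins that bind the hairpins shown above (chr9:54863789-54912530, plus strand). It had 1976 and 2400 counts, or 44.3 and 45.0 CPM, with a log2 ratio of 0.02 (-0.07 to 0.11). Its protein is known to be controlled mainly by degradation, which RNA counts do not measure.

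The other genes of iron and heme metabolism were listed in 6 groups of 94 genes, of which 91 had at least 10 counts. Of these 91, 3 were called higher (3.3%) and 1 lower (1.1%). The shares were 8.56% and 6.62% of all tested genes, and 2.65% and 2.02% of those with at least 1000 counts. The median log2 ratio of the 91 was 0.01 and 47 lay above 0. The genes called were 2 secreted plasma proteins, 1 relative of the reductase Steap4 and 1 gene described as a heme transporter.

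Hp encodes haptoglobin, which captures free hemoglobin and is an acute-phase protein, and showed the widest difference of all 6 groups. It had 1340 counts in control and 30413 with TNF-α, or 30.1 and 570.0 CPM, an 18.9-fold higher level (log2 ratio 4.24, interval 4.17 to 4.32). Cp encodes ceruloplasmin, a copper-containing ferroxidase that oxidizes exported iron for loading onto transferrin and is likewise an acute-phase protein. Its counts were 7461 and 29569, with a log2 ratio of 1.73 (1.69 to 1.76), close to the value of Trf. Cp was thus higher in the library in which the exporter Slc40a1 was lower, while Heph, a related ferroxidase named after its value was seen, had a log2 ratio of -0.09.

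**Figure D4:**
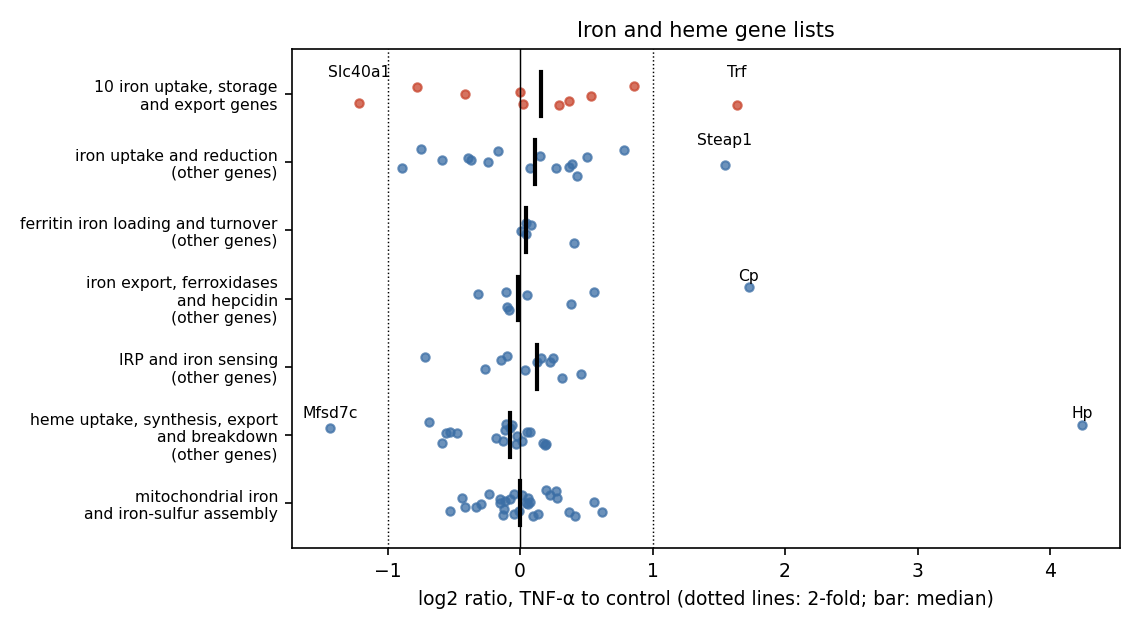
Log2 ratios, TNF-α to control, of the iron genes and of the genes with at least 10 counts in each of the 6 other iron and heme groups, 1 point a gene, with dotted lines at 2-fold. Hp at 4.24 stands far from the rest, and most genes of every group lie within the dotted lines.

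Among the 16 other genes of iron uptake and reduction, the one called was Steap1, a relative of Steap4, at 22 and 81 counts (log2 ratio 1.54, 0.93 to 2.37). The lowest was Scara5, a receptor for ferritin, at 2665 and 1716 counts (log2 ratio -0.89). Values seen first and then named were those of Slc39a8, a relative of Slc39a14, at a log2 ratio of 0.78, and of Lcn2, which binds iron-carrying siderophores, at 0.43. The export group of 10 genes had 8 tested with Cp the only one called, and ran down to Hephl1 at -0.32 on 15 and 14 counts. The hepcidin gene Hamp, whose peptide degrades ferroportin, had 3 counts in each library, and Hamp2 had none.

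The genes that load and turn over ferritin included none past the limit. Their 5 tested genes ran from Pcbp1, an iron chaperone, at a log2 ratio of 0.01 to Pcbp3 at 0.41, and Ncoa4, the receptor that delivers ferritin for breakdown and named after its value was seen, stood at 0.05. The 11 genes of iron sensing, none of them called, ran from Zfp36, an RNA-binding protein that promotes mRNA decay, at -0.72 (1574 and 1146 counts) to Aco1, which encodes iron regulatory protein 1, at 0.46 (1303 and 2146 counts). The 2 hairpin-binding regulators thus had values of 0.46 for Aco1 and 0.02 for Ireb2, both within the limit.

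Of the 21 other heme genes, Hp was called higher and Mfsd7c, also known as Flvcr2 and described as a heme transporter, was called lower on 116 and 50 counts (log2 ratio -1.43, -1.98 to -0.98). The group median was -0.08, and 14 of its genes lay below 0. Hmox2, the constitutive relative of Hmox1, named after its value was seen, had a log2 ratio of -0.02. The 30 genes of mitochondrial iron and iron-sulfur cluster assembly held no called gene, with a median log2 ratio of 0.0023 and a range from Fdx1 at -0.53 to Nubp2 at 0.62.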

How the data were processed

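The deposited table held raw counts per gene, which the authors made from reads on GRCm38/mm10. Its layout also gives coordinates and a summed exon length in bases per gene. The aligner, counter and use of strand are not given in the sources used here. Labels name the RNeasy and SMARTER kits, and the series title calls the experiment a microarray, although the values are sequencing counts.

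From these, CPM was computed on TMM-scaled library sizes (edgeR 4.0.16 in R 4.3.3) over genes with at least 10 counts, with a prior count of 2 for log2 ratios. Intervals of the ratio of a gene between libraries came from exact Clopper-Pearson bounds of the TNF-α share of its counts. Those of levels came from exact Poisson bounds (95%, scipy 1.17.1). Intervals of the shift in the ratio of 2 genes came from a normal approximation to the log odds ratio of their counts. Tables were handled with Python 3.11.15, pandas 2.3.3 and numpy 2.4.6, and drawn with matplotlib 3.10.9. With 1 library per condition no test was made. The scripts were tested on simulated data. A total of 10 counts corresponds to 0.224 CPM in control and 0.187 with TNF-α. Mitochondrial genes took 1.15% and 1.19% of counts, and ribosomal RNA genes 0.461% and 0.582%. Of 47240 gene names shared with GENCODE M21, 90.9% had the same position, and 9 of the 10 iron genes did. The position of Fth1 differs, and is given as in the table.

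The iron genes and lists were chosen with earlier results of these data known. The text names all 10 iron genes, every listed gene past 2-fold, and the highest and lowest gene of each iron and heme list. Alternatives were scaling by total counts, by DESeq2 1.42.0 size factors or by upper quartile, prior counts of 0.5 and 5, halved counts, other filters, a 1.5-fold limit and leaving out ribosomal RNA and mitochondrial genes.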

Additional observations from a re-analysis of the deposited data

How the results depend on the processing

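No paired analysis was possible because the control and TNF-α conditions had a single library each, so no replicate could be left out either. Under 3 other scalings, 2 other prior counts, halved counts and the removal of ribosomal RNA and mitochondrial genes, all 70 recomputed log2 ratios of the iron genes stayed within their counting intervals and moved by at most 0.0089. Trf ranged from 1.63 to 1.64, Slc40a1 from -1.22 to -1.20, and Slc11a2, with no difference to speak of, changed sign in 3 (range -0.0087 to 0.0091). At a 1.5-fold limit, 2 iron genes were higher (Trf and Steap4) and 2 lower (Slc40a1 and Hmox1), against 15.5% and 13.7% of the 20771 genes tested, and in the other iron and heme groups 5 genes were higher and 7 lower. With at least 200 counts required, 2 genes of those groups were higher and 0 lower, since Steap1 and Mfsd7c had fewer counts. The share of all genes called under that filter was not computed, so these 2 counts have no background beside them. Sums with genes that share sequence, added after seeing the data, gave log2 ratios of 1.61 for Trf, -0.37 for Ftl1 and 0.54 for Fth1. These sums may count the same reads more than once and are no independent check. Depth limits the genes with few counts, such as Hamp, and for the 10 iron genes the missing replicates are the limit.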
